A study of Mus musculus with 2 samples.

Results

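Transcripts of 10 apical polarity and Numb genes were measured in the subventricular zone (SVZ) and the cortex of the mouse brain at embryonic day 16.5. The genes were taken by symbol from the 24411 genes counted: *Pard3*, *Pard6a*, *Pard6b*, *Pard6g*, *Prkci*, *Prkcz*, *Crb2*, *Numb*, *Numbl* and *Llgl1*. Both areas were cut by laser capture microdissection from stained cryosections of fresh frozen embryonic heads and profiled by bulk RNA-seq, with 1 library per area. No strain, genotype or treatment is given in the sources used here, nor the number of embryos behind each library. In the study these libraries were the benchmark for a light-driven spatial barcoding method, and the question taken up here is how the polarity genes divide between a germinal layer and the neurons above it. Gene-assigned reads numbered 51435667 for SVZ and 22050693 for cortex, so the SVZ was sequenced 2.33 times deeper.

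Radial glia, the progenitors that line the ventricle, are polarised cells. At their apical end the PAR complex and the Crumbs complex sit at a belt of adherens junctions. The PAR complex holds the scaffold PAR3, the adaptor PAR6 and an atypical protein kinase C (aPKC). LGL marks the basolateral membrane, and aPKC excludes it from the apical side by phosphorylation. NUMB and NUMBL are endocytic adaptors known as antagonists of Notch and as regulators of cadherin junctions in these cells. The same PAR proteins are known in postmitotic neurons for their part in choosing the axon.

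Levels are given as CPM, the reads of a gene divided by the gene-assigned reads of its library and multiplied by 1000000, and differences as a log2 ratio, SVZ over cortex. Parentheses after a ratio or share hold exact 95% intervals of the read counts. They hold the error of counting and nothing else, and PCR copies of a molecule count as separate reads. With 1 library per area no difference has a replicate check or a p-value. In such bulk pieces, fewer cells of a type and less RNA per cell cannot be told apart.

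The areas were first checked against markers of their cells. All 9 apical progenitor genes that averaged 1 CPM or more were 2-fold or more higher in SVZ, among them *Pax6* (179.7 against 0.680 CPM), as were all 5 intermediate progenitor genes, among them *Eomes* (227 against 0.0907 CPM). *Pax6* had 15 cortex reads with strand ignored, and 57 when the counts of each strand were added up. Its log2 ratio was 8.05 in the first case and 6.18 in the second. All 11 neuron genes were higher in the cortex library, 8 of them at least 2-fold, although *Neurod6* was abundant in both (1592 CPM in SVZ and 2797 CPM in cortex). Markers of other cells also differed. The 9 choroid plexus genes summed to 249.6 CPM in SVZ and 2.27 CPM in cortex, most of it *Ttr* (240.4 against 0.726 CPM), while *Kl* and *Cldn2* were at 0 reads in both libraries, and the 3 genes of this list that averaged 1 CPM were all 2-fold or more higher in SVZ. The 8 microglial genes were each at least 2-fold higher in SVZ (64.2 against 6.80 CPM in sum), and the 8 blood vessel genes summed to 81.9 and 69.9 CPM. The part of these cells in the differences below was not tested.

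As a set, the 10 genes did not stand to 1 side. All 10 averaged 1 CPM or more, 2 were 2-fold or more higher in SVZ (*Crb2* and *Pard3*), 1 in cortex (*Prkcz*) and 7 lay within 2-fold. Of the 12738 genes that averaged 1 CPM or more, here called tested, 20.0% were 2-fold or more higher in SVZ and 15.6% in cortex, shares close to those of the set. The median log2 ratio of the set was 0.08, against 0.11 over all genes tested, and 6 of the 10 lay between the quartiles of all genes (-0.56 and 0.76). Counting intervals lay above equal CPM for 5 of the genes and below it for 3, but intervals this narrow exclude equal CPM for most genes here: 48.2% of all genes tested lay above it and 38.6% below. The sum over the set was 289.8 CPM in SVZ and 276 CPM in cortex.

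**Figure D1:**
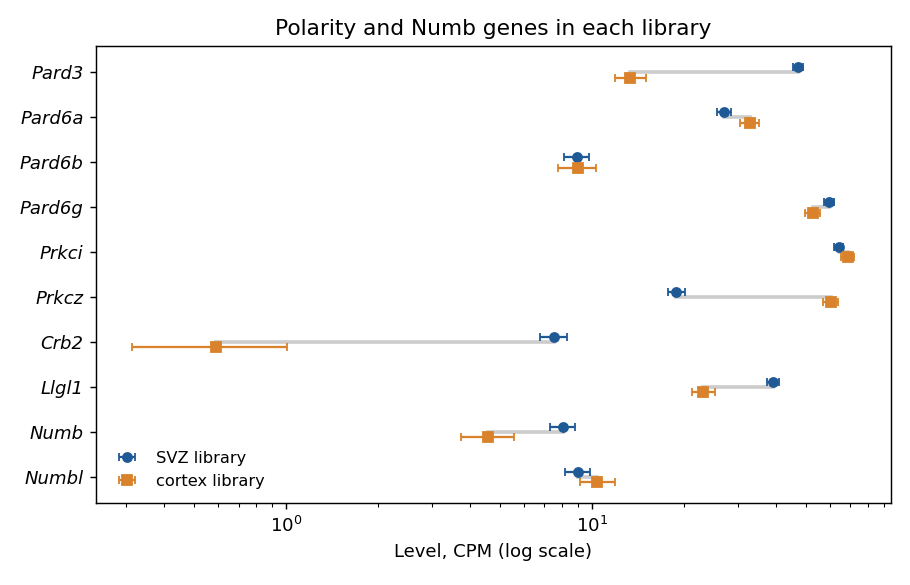
Level of each gene in CPM, on a log axis, in the SVZ library (circles) and the cortex library (squares), with exact 95% counting intervals, 1 library each. *Crb2*, *Pard3* and *Prkcz* have the widest gaps between the libraries, while the points of *Pard6b* lie together at 8.92 and 8.98 CPM.

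The scaffold of the PAR complex was higher in the germinal layer. *Pard3* (GRCm38 chromosome 8, 127063893 to 127612286), whose protein recruits PAR6 and aPKC to the apical junctions, had 2433 SVZ reads and 295 cortex reads. Its level was 47.3 CPM in SVZ and 13.4 CPM in cortex, a fold of 3.54 (3.13 to 4.00) and a log2 ratio of 1.82 (1.65 to 2.00). This placed it above 88.8% of all genes tested. Its paralogue *Pard3b*, which is known not to bind aPKC, was higher in SVZ as well, at 12.1 and 0.952 CPM (623 and 21 reads), which is 3.67 (3.04 to 4.37) on the log2 scale.

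The PAR6 adaptors, which tie aPKC to the small GTPase CDC42, were close to even. *Pard6g* (chromosome 18, 80046890 to 80119639) had 59.7 CPM in SVZ and 52.8 CPM in cortex, a log2 ratio of 0.18 (0.08 to 0.28). *Pard6a* (chromosome 8, 105701148 to 105703496) had 27.2 and 32.8 CPM, a log2 ratio of -0.27 (-0.40 to -0.14). *Pard6b* (chromosome 2, 168081004 to 168101203) had 459 and 198 reads, or 8.92 and 8.98 CPM, and its log2 ratio of -0.01 (-0.25 to 0.24) was no difference detectable at this depth. Summed over the 3 genes, PAR6 transcripts came to 95.8 CPM in SVZ and 94.6 CPM in cortex, a log2 ratio of 0.02 (-0.06 to 0.09). The scaffold and the adaptor of the same complex therefore had unlike ratios. For *Pard6g* the interval held equal CPM under 3 other scalings of the libraries.

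The kinases of the complex were unlike each other. *Prkci* (chromosome 3, 30995747 to 31052959), which encodes aPKC iota/lambda, had 3298 and 1515 reads, 64.1 CPM in SVZ and 68.7 CPM in cortex. Its log2 ratio was -0.10 (-0.19 to -0.01). The interval held equal CPM once the SVZ library was thinned to the cortex depth. Under TMM, upper-quartile and DESeq2 scaling the ratio was -0.193, -0.198 and -0.193, with intervals below equal CPM. *Prkcz* (chromosome 4, 155260129 to 155361361), which encodes aPKC zeta, had 973 SVZ reads and 1332 cortex reads in spite of the greater depth of SVZ. Its level was 18.9 CPM in SVZ and 60.4 CPM in cortex, so that it was 3.19-fold (2.94 to 3.47) higher in cortex, with a log2 ratio of -1.68 (-1.80 to -1.55). Only 9.06% of the genes tested had a lower ratio. Together the aPKC genes came to 83.0 CPM in SVZ and 129 CPM in cortex, a log2 ratio of -0.64 (-0.71 to -0.57).

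**Figure D2:**
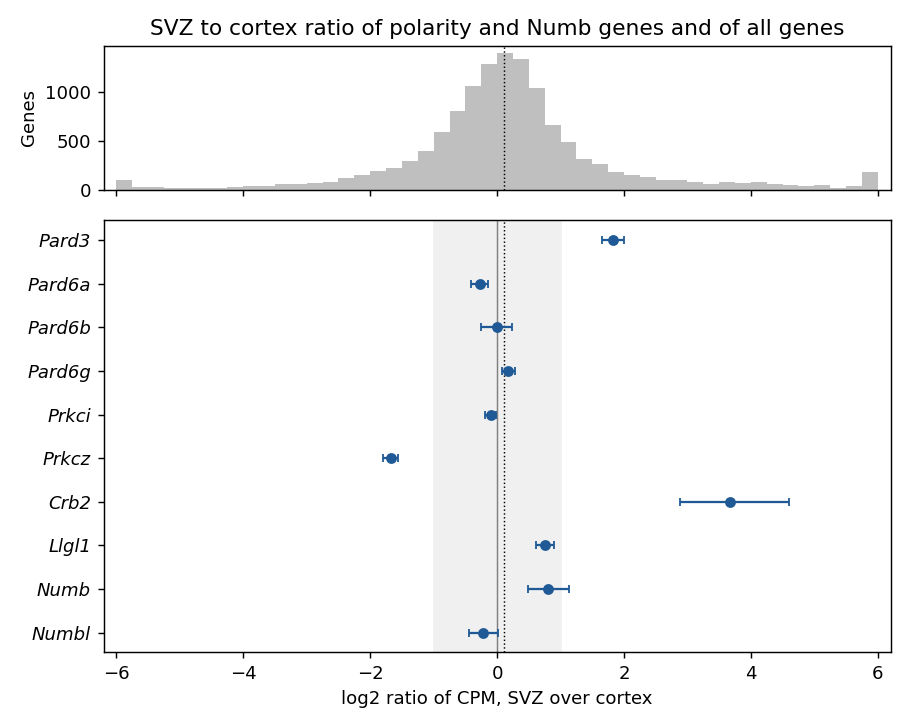
Log2 ratio, SVZ over cortex CPM, for each gene (lower panel, points with exact 95% counting intervals) under the histogram of all 12738 tested genes (upper panel, ratios beyond the axis gathered in the end bars). The shaded band is within 2-fold and the dotted line is the median of all genes, 0.11; *Crb2* and *Pard3* lie right of the band and *Prkcz* left of it.

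*Prkcz* is known in brain for an additional product, PKM zeta, a kinase without the regulatory domain that is made from an internal start site. The count adds up all transcripts of the gene, of which GENCODE M21 lists 10, so the share of each product cannot be told apart here. RefSeq gives 3 start windows for the gene, and the reads of *Prkcz* are not split between them. The outermost and the next one, 15639 bases further in, are shown. The third, 16679 bases in from the outermost, is not shown. Which window belongs to PKM zeta was not tested. Each runs 5′ to 3′ on the minus strand of GRCm38.p6, from 250 bases before to 50 bases after the start. Capitals mark matches on either strand to the E-box (CANNTG), the core of the RBPJ site (TGGGAA) and the cAMP response element (TGACGTCA), none of which overlap in these windows.
*Prkcz*, outer start, chr4:155361379-155361678: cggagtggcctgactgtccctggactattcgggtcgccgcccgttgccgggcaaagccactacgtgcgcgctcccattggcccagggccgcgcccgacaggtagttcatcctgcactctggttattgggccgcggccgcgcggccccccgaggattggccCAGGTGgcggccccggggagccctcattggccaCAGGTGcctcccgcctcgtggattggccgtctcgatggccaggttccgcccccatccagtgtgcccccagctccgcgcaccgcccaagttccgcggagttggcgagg
*Prkcz*, internal start, chr4:155345740-155346039: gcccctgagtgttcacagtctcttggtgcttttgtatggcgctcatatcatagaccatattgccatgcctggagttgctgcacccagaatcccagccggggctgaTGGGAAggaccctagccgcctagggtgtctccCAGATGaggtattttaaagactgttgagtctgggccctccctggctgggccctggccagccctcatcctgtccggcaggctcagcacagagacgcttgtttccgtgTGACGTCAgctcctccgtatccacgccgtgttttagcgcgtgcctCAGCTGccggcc
The outer window held 31 CG dinucleotides and 2 E-boxes. The internal window shown held 13 CG dinucleotides, 2 E-boxes, 1 RBPJ core and 1 cAMP response element. The third window, also internal, held 14 CG dinucleotides, 2 E-boxes, 0 RBPJ cores and 0 cAMP response elements. Among all 32851 RefSeq windows the median was 7 CG dinucleotides, 72.3% held an E-box, 25.6% an RBPJ core and 1.79% a cAMP response element. These matches are descriptions of the letters, and no reads by start site were analysed.

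Crumbs was the gene with the highest ratio. *Crb2* (chromosome 2, 37776249 to 37799103), the transmembrane Crumbs protein that anchors the apical complex in neural progenitors, had 387 SVZ reads and 13 cortex reads. Its level was 7.52 CPM in SVZ and 0.590 CPM in cortex, a fold of 12.8 (7.38 to 24.2) and a log2 ratio of 3.67 (2.88 to 4.60), above 95.2% of the genes tested. The annotation has 113 bases of *Crb2* exons overlapping exons of *Dennd1a* on the opposite strand, and STAR sets reads in such an overlap aside. With the stranded columns added up, *Crb2* gained 136 reads in SVZ and 17 in cortex, as did *Dennd1a*, and the log2 ratio of *Crb2* was 2.90 (2.37 to 3.48). Because the libraries keep no strand (49.6% and 49.7% of the stranded reads stood in the first column), those reads could come from either gene. The other Crumbs genes were rare: *Crb1*, with 65 and 3 reads, had a log2 ratio of 3.22 (1.60 to 5.53), and *Crb3*, the epithelial form, had 23 and 6 reads.

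The basolateral antagonist was moderately higher in SVZ. *Llgl1* (chromosome 11, 60699723 to 60714186) had 2012 and 511 reads, 39.1 CPM in SVZ and 23.2 CPM in cortex, a fold of 1.69 (1.53 to 1.86) and a log2 ratio of 0.76 (0.61 to 0.90). It shares 64 exon bases with *Flii* on the opposite strand, and its stranded sums were 2164 and 564 reads. *Llgl2*, the paralogue of epithelia, had 7 reads in SVZ and 0 in cortex, where 0 reads allow up to 3 reads or 0.136 CPM, and 10 and 3 reads in the stranded sums.

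The Numb genes differed from each other. *Numb* (chromosome 12, 83794034 to 83921934) had 413 and 101 reads, 8.03 CPM in SVZ and 4.58 CPM in cortex, a fold of 1.75 (1.41 to 2.20) and a log2 ratio of 0.81 (0.49 to 1.14). *Numbl* (chromosome 7, 27258433 to 27282144) had 462 and 230 reads, 8.98 and 10.4 CPM, and a log2 ratio of -0.22 (-0.45 to 0.02). The interval of *Numbl* held equal CPM, but lay below it under 4 other scalings.

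Paralogues of a family were then compared within each library, a measure that does not depend on how the libraries are scaled. *Prkcz* took 22.8% (21.5 to 24.1) of the aPKC reads in SVZ and 46.8% (44.9 to 48.6) in cortex. The log2 ratio of *Prkcz* minus that of *Prkci* was -1.58 (-1.73 to -1.43). *Numbl* took 52.8% (49.4 to 56.2) of the Numb family reads in SVZ and 69.5% (64.2 to 74.4) in cortex, and the difference *Numbl* minus *Numb* was -1.03 (-1.43 to -0.63). Both families thus had a larger share of 1 paralogue in cortex, beyond counting error. Among the PAR6 genes, *Pard6g* took 62.3% of the reads in SVZ and 55.8% in cortex, *Pard6a* 28.3% and 34.7%, and *Pard6b* 9.31% and 9.49%. The difference *Pard6a* minus *Pard6g* was -0.45 (-0.62 to -0.29), whereas *Pard6a* minus *Pard6b* (-0.26, -0.55 to 0.01) and *Pard6g* minus *Pard6b* (0.19, -0.08 to 0.45) had intervals that held 0. With the SVZ library thinned to the cortex depth, the first of these was -0.40 (-0.73 to -0.06).

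**Figure D3:**
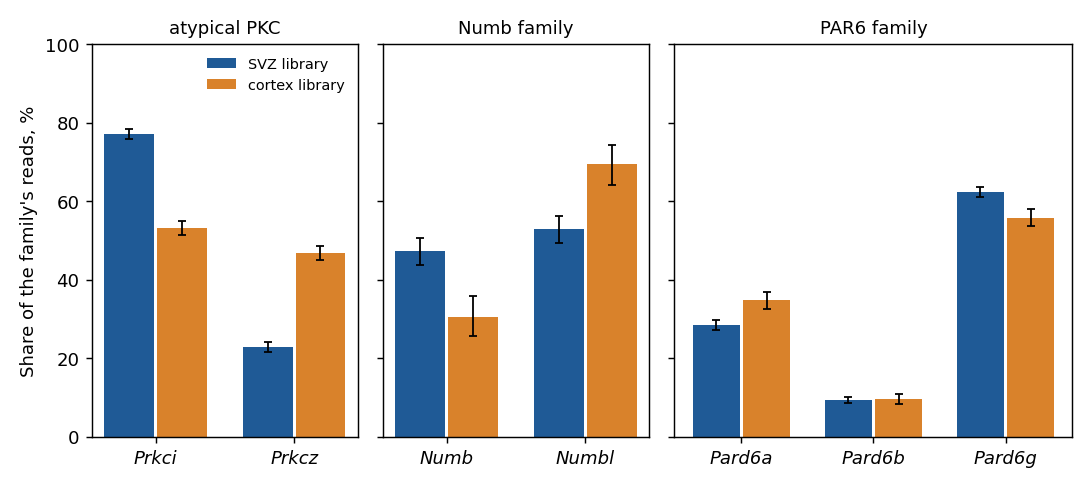
Share of the reads of the aPKC, Numb and PAR6 families taken by each paralogue, in percent, in the SVZ library (blue bars) and the cortex library (orange bars), with exact 95% binomial intervals. The *Prkcz* bar goes from 22.8% in SVZ to 46.8% in cortex and the *Numbl* bar from 52.8% to 69.5%, while the *Pard6b* bars are alike in height.

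Levels between genes were compared only per length, as CPM per kilobase of annotated exons. In SVZ *Pard6g* (19.0 CPM per kilobase) and *Pard6a* (17.2) were highest, followed by *Prkci* (11.6), *Llgl1* (8.05), *Pard3* (3.26), *Prkcz* (2.99), *Pard6b* (2.63), *Numb* (2.05), *Crb2* (1.12) and *Numbl* (1.04). The counting intervals of *Pard3* and *Prkcz*, of *Prkcz* and *Pard6b*, and of *Crb2* and *Numbl* overlapped. In cortex the order began with *Pard6a* (20.8), *Pard6g* (16.8), *Prkci* (12.4) and *Prkcz* (9.56) and ended with *Numbl* (1.20), *Numb* (1.17), *Pard3* (0.922) and *Crb2* (0.0880), with *Llgl1* (4.77) and *Pard6b* (2.64) between. There the intervals of *Numbl* and *Numb* and of *Numb* and *Pard3* overlapped. Per length, *Numb* made up 66.4% of the Numb family in SVZ and 49.3% in cortex. The order depended in part on the length used. Per kilobase of the longest transcript, *Pard6a* (21.3) stood above *Pard6g* (19.0) in SVZ, and *Prkcz* (14.8) just above *Prkci* (14.6) in cortex. The level of *Pard3*, whose exons cover 14506 bases but whose longest transcript has 5815, was then 8.13 in SVZ and 2.30 in cortex, where it came before *Numb* and *Numbl*.

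The wider polarity machinery was described with 8 lists of 78 genes, 76 of them found in the files by symbol (*Epb41l5* and *Ric8a* were not found) and 71 tested. Over these lists 15 genes were 2-fold or more higher in SVZ and 14 in cortex (21.1% and 19.7%), near the 20.0% and 15.6% of all genes tested, and their median log2 ratio was -0.22. In 3 of the lists genes lay 2-fold or more apart on both sides, and in 5 on 1 side only.

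The Crumbs list, of Crumbs genes and the partners that tie the tail of Crumbs to the PAR complex, had genes on both sides. Of 6 tested genes 3 were at least 2-fold higher in SVZ and 2 in cortex, beside 20.0% and 15.6% of all genes tested. Their median log2 ratio was 0.31. *Crb1* and *Crb3* averaged under 1 CPM and were not among the 6. With no minimum, 4 of 8 genes were 2-fold or more higher in SVZ and the median was 0.89. Under TMM, upper-quartile and DESeq2 scaling 2 were 2-fold or more higher in SVZ. After thinning of the SVZ library 1 of 5 was so in cortex. *Inadl* (the PATJ gene) had 37.4 and 3.08 CPM and a log2 ratio of 3.60 (3.25 to 3.97), and *Mpp5* (the PALS1 gene) 72.0 and 19.1 CPM and 1.91 (1.76 to 2.06). *Lin7a* and *Lin7b*, small adaptors that also serve at synapses, had log2 ratios of -1.78 and -1.89. *Lin7b* was rare, with 22 and 35 reads.

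The list of PAR complex partners held 8 genes, 1 of them the paralogue *Pard3b* and not a known partner of aPKC. In each area 2 were at least 2-fold higher, and the median log2 ratio was 0.04. *Pard3b* (above) and *Wwc1*, the aPKC-binding protein KIBRA (log2 ratio 1.23, 1.08 to 1.38), were on the SVZ side. *Tiam1* (-1.09, -1.25 to -0.92) and *Tiam2* (-2.11, -2.16 to -2.07), exchange factors for the GTPase RAC1, were on the cortex side.

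The basolateral Scribble module had 0 of 6 genes at least 2-fold higher in SVZ and 1 in cortex, with a median of -0.13. The exception was *Dlg2*, better known as a synaptic scaffold, with 10.6 and 57.8 CPM and a log2 ratio of -2.45 (-2.59 to -2.30), and next to it came *Dlg3* at -0.42. *Dlg5* (0.07) and *Scrib* (-0.11), Scribble itself, had intervals that held equal CPM. Among 7 genes of the PAR-1 and PAR-4 kinases and of PAR-4 cofactors, 1 was at least 2-fold higher in cortex, the microtubule kinase gene *Mark4* (79 and 92 reads, log2 ratio -1.44), and *Mark1* followed at -0.89. *Mark3* stood at 0.12 and *Mark2* at -0.10, and the median was -0.23.

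Of 12 partners and regulators of Numb, 2 were 2-fold or more higher in cortex and 0 in SVZ, beside 15.6% and 20.0% of all genes tested, with a median of -0.47. The counting intervals of 10 lay on the cortex side, where 38.6% of all genes tested lay. *Lnx2*, which encodes a ubiquitin ligase of the family that targets NUMB, had 88 SVZ reads against 720 cortex reads, a log2 ratio of -4.25 (-4.59 to -3.93). *Ap2a1*, an alpha subunit of the endocytic adaptor AP-2, had a log2 ratio of -1.13, which was -0.74 with the stranded columns added up, leaving *Lnx2* as the 1 gene past 2-fold. *Mdm2* (0.16) and *Ap2s1* (0.06) had the highest ratios of the list. *Numb* itself was higher in SVZ, whereas *Numbl* was at -0.22 (-0.45 to 0.02). In the list 10 of the 12 genes had a ratio below 0, among them *Itch*, near even at -0.10.

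Genes that orient the mitotic spindle had 2 of 8 at least 2-fold higher in SVZ and 1 in cortex, with a median of -0.18. *Gpsm2* is the gene of LGN, which links the membrane of the dividing cell to the spindle. It had 94.2 CPM in SVZ and 15.0 CPM in cortex, a log2 ratio of 2.65 (2.49 to 2.81). With the stranded columns added up the log2 ratio of *Gpsm2* was 2.46, from 5486 and 426 reads. *Gnai2*, the gene of an inhibitory G protein subunit that binds LGN, had a log2 ratio of 1.68 (1.58 to 1.79). *Dctn1* (-1.37), of dynactin, and *Gpsm1* (-0.80), the paralogue of *Gpsm2*, had the lowest ratios.

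Junction proteins had 8 of 17 genes at least 2-fold higher in SVZ and 0 in cortex, beside 20.0% and 15.6% of all genes tested, with a median log2 ratio of 0.59 against 0.11. Under TMM, upper-quartile and DESeq2 scaling 2 of them, *Ctnna2* and *Pvrl1*, were 2-fold or more higher in cortex. *Jam2*, a junctional adhesion molecule, had 45.2 and 3.99 CPM and a log2 ratio of 3.50 (3.19 to 3.82). *Ctnna2*, the neuronal alpha-catenin, had a log2 ratio of -0.94 (-0.99 to -0.89), and *Pvrl1* (the nectin-1 gene) one of -0.92. *Cdh1*, the E-cadherin gene of epithelia, had 0 reads in both libraries.

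Finally, the other protein kinase C genes were set beside the atypical ones. Of 7 genes 5 were at least 2-fold higher in cortex and 0 in SVZ, and their median log2 ratio was -1.70, close to the -1.68 of *Prkcz* and not to the -0.10 of *Prkci*. *Prkce* had 64.7 and 508 CPM, a log2 ratio of -2.97 (-3.03 to -2.92). *Prkcb* was the exception, with 64.1 CPM in SVZ and 32.6 CPM in cortex and a log2 ratio of 0.98 (0.86 to 1.09), and *Prkca* stood at -0.73.

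**Figure D4:**
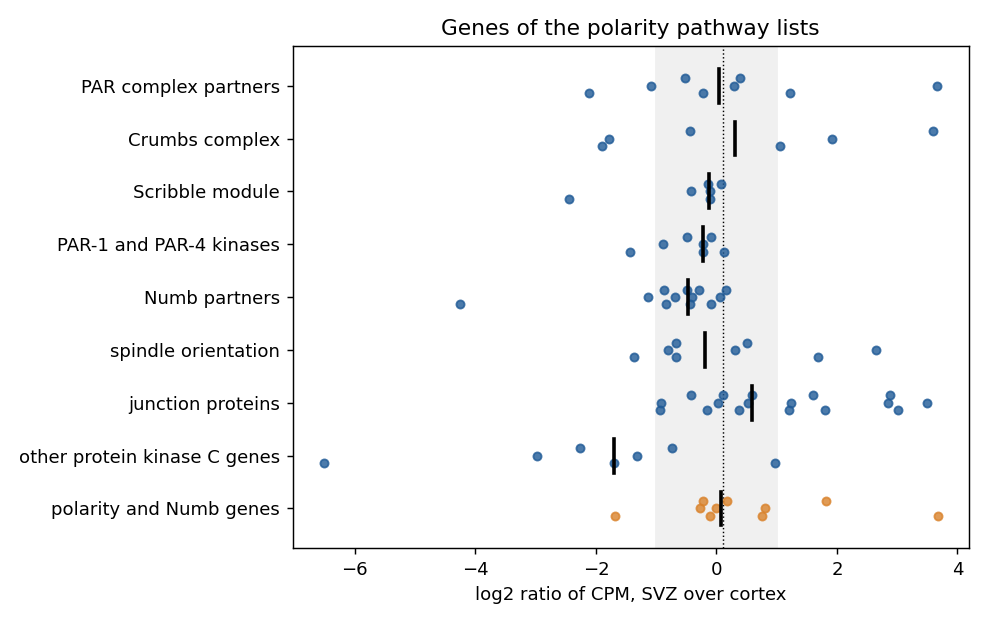
Log2 ratio, SVZ over cortex CPM, for every tested gene of the 8 pathway lists and for the 10 polarity and Numb genes (bottom row), 1 point per gene, with a bar at the median of each list. The shaded band is within 2-fold and the dotted line is the median of all genes tested; 8 junction genes lie right of the band and 5 protein kinase C genes left of it, and a ratio against 0 reads is drawn at its bound.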

How the data were processed

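RNA from laser-captured SVZ and cortex was made into libraries with a low-input kit. The authors trimmed adapters with cutadapt 4.1, mapped read 1 to mm10 (GRCm38) with STAR 2.7.9a and deposited whole-number counts of reads per gene, with strand ignored and for each strand apart. Reads in several genes or places are left out of these counts. A deposited table of the authors' CPM and fold changes was not used.

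The unstranded counts were scaled to CPM on the gene-assigned total, adding no pseudocount. Where 1 library had no read of a gene, 3 reads took its place and the ratio was called a bound. Intervals were Clopper-Pearson (ratios, shares), Poisson (levels) and conditional exact (differences between paralogues), all at 95%. Genes averaging 1 CPM or more were counted when 2-fold or more apart. Positions and lengths came from GENCODE M21, matched by symbol, and promoter windows from RefSeq (GRCm38.p6), of which 15 windows of 9 of the 10 genes were used.

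The genes and the lists were chosen with earlier results of these data known. From each pathway list the genes with the 2 highest and 2 lowest ratios were named (some are not reported here), with the close paralogues *Pard3b*, *Crb1*, *Crb3* and *Llgl2* and the markers *Pax6*, *Eomes*, *Neurod6* and *Ttr*. *Kl*, *Cldn2* and *Cdh1* were named after their values were seen. Lists of meningeal, interneuron and oligodendrocyte precursor markers had medians of -1.30, 0.48 and -0.13 (log2). Alternatives used edgeR 4.0.16 and DESeq2 1.42.0 (scaling only) in R 4.3.3. All else ran in Python 3.11.15 with scipy 1.17.1, pandas 2.3.3 and numpy 2.4.6. The procedures were tested on simulated data.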

Additional observations from a re-analysis of the deposited data

How the results depend on the processing

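No paired analysis was possible because SVZ and cortex have 1 library each, which also leaves no replicate to drop. Of 70 ratios of the 10 genes recomputed under TMM, upper-quartile and DESeq2 scaling, totals without the 13 most counted genes, the stranded sum, thinning of the SVZ library and a pseudocount of 1 CPM, 64 stayed within their counting interval, 5 left it and 1 changed sign. That was *Pard6b*, at 0.050 after thinning. The scalings shifted all log2 ratios by -0.03 to -0.10. *Crb2* was 2.42 with the pseudocount, which draws low counts towards 0, and rests on 13 cortex reads. The interval of *Prkci* held equal CPM after thinning, while TMM, upper-quartile and DESeq2 scaling took its ratio out of its interval, towards cortex.

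The counts of the set (2 and 1 of 10) moved with the rule alone. A minimum of 10 CPM left 6 genes tested, 1 of them on the SVZ side. A ratio of 1.5 gave 4 in SVZ, and a ratio of 4 gave 1 in SVZ and 0 in cortex. The pathway lists (15 and 14 of 71) had 7 and 6 genes at a ratio of 4. On the cortex side they had 24 at a ratio of 1.5, and 9 of 58 at a minimum of 10 CPM. Over all genes (2547 and 1992 of 12738) the counts were 1341 and 1113 of 9027 at 10 CPM. They were 3880 and 3097 at a ratio of 1.5, and 1300 and 893 at a ratio of 4. The paralogue differences stayed within their intervals under the 3 alternatives run for them, but the interval of *Pard6a* minus *Pard6b* no longer held 0 after thinning.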

Other observations

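*Insc*, which encodes the adaptor Inscuteable that joins PAR3 to LGN, was picked out after its values were seen. It had 81 SVZ reads and 0 cortex reads, 1.57 CPM against a floor of 0.136 CPM. Set against that floor, *Insc* was at least 11.6-fold higher in SVZ, a log2 ratio of 3.53. The lower end of its 95% counting interval was lower, at 3.20. Its mean lay under 1 CPM, so it entered none of the counts above.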
